A study of Mus musculus with 8 samples.

Results

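The 10 heat shock chaperone genes described here are Hspa1a, Hspa1b, Hsph1, Dnajb1, Hspb1, Hsp90aa1, Hsp90ab1, Hspa8, Hspa4 and Hspd1, taken by gene symbol from the 46078 gene entries of a hippocampal count table. All 10 were found once and all 10 had enough counts to be tested, among 15859 genes tested. The libraries comprise 4 from mice that carry the Tg(Camk2a-cre)2Gsc transgene as Cre+/- (Cre) and 4 from wild-type mice (WT), all C57BL/6J and 9 weeks old. In this line, called CamiCre, regulatory DNA of Camk2a drives Cre recombinase in forebrain excitatory neurons. No floxed allele is named in the labels, so the comparison concerns the transgene itself, in a single transgenic line. The labels number the libraries within each group and do not say whether each came from a different animal, so p-values measure only the spread between these libraries.

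Heat shock proteins are chaperones: they bind unfolded or partly folded proteins and help them fold, keep them from aggregating, or hand them on for degradation. HSP70 proteins work in cycles of ATP hydrolysis that J-domain proteins (HSP40) start and exchange factors such as HSP110 complete, and HSP90 takes over clients such as kinases and steroid receptors. Under heat or other protein-damaging stress, heat shock factor 1 binds heat shock elements, which are inverted repeats of the unit GAA, and induces a subset of these genes. Neurons hold high basal levels of the constitutive forms, while the strongly inducible HSP70 is scarce in unstressed brain.

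Stretches of promoter from RefSeq (GRCm38.p6) show which of the genes carry exact matches to 2 or 3 inverted GAA units, with the matched letters in capitals. Of the stretches printed, only that of Hspd1 holds a 3-unit match, and the others hold 2-unit matches. The table holds 300-base windows, from 250 bases before to 50 after a transcript start, for 7 of the 10 genes, and Hsp90aa1, Hsp90ab1 and Hspa8 are not among them. The stretches are chr17:34972227-34972286 (minus strand) for Hspa1a, chr17:34959309-34959368 (minus) for Hspa1b, chr5:135887776-135887855 (plus) for Hspb1, chr1:55088053-55088082 (minus) for Hspd1 and chr5:149636351-149636380 (minus) for Hsph1.
Hspa1a: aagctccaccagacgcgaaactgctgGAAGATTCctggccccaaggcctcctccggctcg
Hspa1b: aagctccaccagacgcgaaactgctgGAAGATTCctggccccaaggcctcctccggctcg
Hspb1: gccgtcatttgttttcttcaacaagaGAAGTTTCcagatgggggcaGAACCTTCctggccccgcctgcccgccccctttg
Hspd1: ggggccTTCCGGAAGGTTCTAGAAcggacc
Hsph1: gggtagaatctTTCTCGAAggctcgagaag

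The search used GAANNTTC and TTCNNGAA, each of which reads the same on both strands, and the 3-unit forms GAANNTTCNNGAA and TTCNNGAANNTTC, which are each other's reverse complement and contain the shorter ones. The 7 genes have 10 windows. A 2-unit match lay in 6 of the 10 windows, from 5 of the genes, against 15.1% of all 32851 windows. A 3-unit match lay in 3 of the 10, from Hspd1 and Hsph1, against 0.603% of all windows. In Hspd1 the match begins 144 bases before a start site and falls inside the first exon of a transcript that starts further upstream. In Hsph1 the 3-unit match begins 37 or 16 bases after the start, depending on the transcript, and the stretch above holds the 2-unit match before it. That 2-unit match also lies inside the annotated gene, which begins at 149636376 on the minus strand. Windows of Dnajb1 and Hspa4 held none of these letters. The windows are not independent: those of Hspa1a and Hspa1b are identical at 296 of 300 bases, and both Hsph1 windows overlap.

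The groups are first compared in Syt2, the gene the series is titled for, which encodes a calcium sensor of vesicle release. Syt2 had 164 to 188 CPM (counts per 1000000 normalised library counts) in Cre libraries and 32.8 to 41.5 CPM in WT libraries. The groups thus separate in Syt2, but a gene chosen from the title is no independent check of the labels. Library totals ran from 21339996 to 27826871 counts in Cre and from 24289522 to 26950207 in WT. Excitatory neuron markers were abundant, with summed levels of 8470 to 9196 CPM in Cre and 8599 to 9092 CPM in WT over 7 markers. Of 58 tested markers in 9 cell type lists, 0 passed the threshold, and 14 lay at an unadjusted p under 0.05 in the edgeR fit, where 3.50% of all genes lay. Of these 14, 9 were glial markers and 4 choroid plexus markers. WT replicate 1 stood apart in choroid plexus markers, at 980.2 CPM over the 5 tested of 8, while Cre libraries had 23.0 to 34.5 CPM and WT replicates 2 to 4 had 24.4 to 32.7 CPM. All 21 tested glial markers lay above 0 in Cre against WT. Summed astrocyte markers were 5294 to 5928 CPM in Cre and 4909 to 5281 CPM in WT, and summed microglia markers 286 to 370.4 CPM in Cre and 266 to 282 CPM in WT. All Cre libraries thus lay above all WT libraries in both sums, narrowly for astrocytes. Most single markers overlapped: the groups were apart in 2 of 7 astrocyte and 2 of 7 microglia markers, against 2.31% of all genes tested. Summed oligodendrocyte markers overlapped, at 3933 to 5042 CPM in Cre and 3915 to 4352 CPM in WT. Cre replicate 1 had the highest sum in all 3 glial lists. In whole tissue, a change in the number of cells of a type and a change in RNA per cell cannot be told apart.

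None of the 10 heat shock chaperone genes passed the threshold in Cre against WT hippocampus, and the Cre and WT ranges overlapped in all 10. Mean levels were lower in Cre for 8 genes and higher for 2, and the median log2 fold change was -0.02, against 0.0004 over all genes tested. The background was low: 0.0315% of genes passed an adjusted p of 0.05 in the edgeR quasi-likelihood fit (p-values adjusted over all genes by Benjamini and Hochberg's method). At an unadjusted p under 0.05 there were also 0 of the 10, where 3.50% of all genes lay, and DESeq2 and limma voom likewise called 0. The groups did not overlap in 2.31% of all genes tested, and in 0 of the 10. In that edgeR test every one of the 10 had an adjusted p = 0.9995.

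The stress-inducible HSP70 genes Hspa1a and Hspa1b lie 9.95 kb apart on the minus strand of chromosome 17 (34969190 to 34972156 and 34956436 to 34959238, GRCm38), and each has a single exon. Both encode the cytosolic HSP70 that heat shock induces. Hspa1a had 10.8, 12.3, 10.3 and 12.9 CPM in Cre replicates 1 to 4, against 11.3, 12.1, 15.3 and 13.7 CPM in WT replicates 1 to 4. The highest 2 values were both WT and the lowest 2 both Cre, with the other libraries mixed. The means were 11.6 ± 1.25 CPM in Cre and 13.1 ± 1.77 CPM in WT (SD, n = 4 each), and the log2 fold change was -0.18 (SE 0.11, 95% interval -0.41 to 0.05). That was the lowest p of the 10 genes, 0.121 unadjusted by edgeR's quasi-likelihood test, and an exact permutation test over all 70 splits gave 0.229 (2-sided). The smallest p that test can give is 0.0286.

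Hspa1b had 13.7, 18.0, 12.3 and 13.7 CPM in Cre, against 13.2, 15.01, 17.7 and 15.96 CPM in WT. Cre replicate 2 was the highest of all 8 libraries and Cre replicate 3 the lowest, so the WT values lay within the Cre range. The means were 14.4 ± 2.49 CPM in Cre and 15.5 ± 1.88 CPM in WT, with a log2 fold change of -0.11 (SE 0.12). Without Cre replicate 2 the log2 fold change of Hspa1b was -0.23 (unadjusted p = 0.0422 in the edgeR fit, adjusted p = 0.995). Without WT replicate 1 that of Hspa1a was -0.24 (unadjusted p = 0.0387 in the edgeR fit, adjusted p = 0.997). Other libraries left out gave smaller changes. Hspa1b had -0.03 without Cre replicate 3 (unadjusted p = 0.779 in the edgeR fit). Hspa1a had -0.09 without WT replicate 3 (unadjusted p = 0.387 in the edgeR fit).

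The counts of these paralogs are uncertain relative to each other. Of the 150-base windows of the longest protein-coding transcript, 38.1% for Hspa1a and 40.5% for Hspa1b occur letter for letter in the other gene. A read lying wholly in such a window has no unique place by itself. The reads were paired, and a mate outside the shared stretch can still place it. These shares therefore do not give the share of ambiguous read pairs. The ratio of Hspa1b to Hspa1a counts was 1.27, 1.46, 1.19 and 1.06 in Cre libraries and 1.17, 1.24, 1.16 and 1.17 in WT libraries. The means were 1.25 ± 0.17 in Cre and 1.18 ± 0.04 in WT (SD, n = 4 each), which did not differ beyond their spread (exact permutation p = 0.600; after Benjamini-Hochberg adjustment over the 4 ratios given here, all have p = 0.971). Gm20481, annotated on the opposite strand over 564 exonic bases of Hspa1a, had 0 to 7 counts in Cre libraries and 1 to 8 in WT libraries. Gm10501, which holds 2.98% of the Hspa1a windows and 1.47% of the Hspa1b windows, had 210 to 275 counts in Cre libraries and 223 to 285 in WT libraries. Its 1952 counts over all 8 are 79.5% of the Hspa1a total and 65.9% of the Hspa1b total. Hspa1l holds the same shares of windows and had 91 counts over all 8. Whether any Gm10501 counts came from reads of Hspa1a or Hspa1b was not tested.

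**Figure D1:**
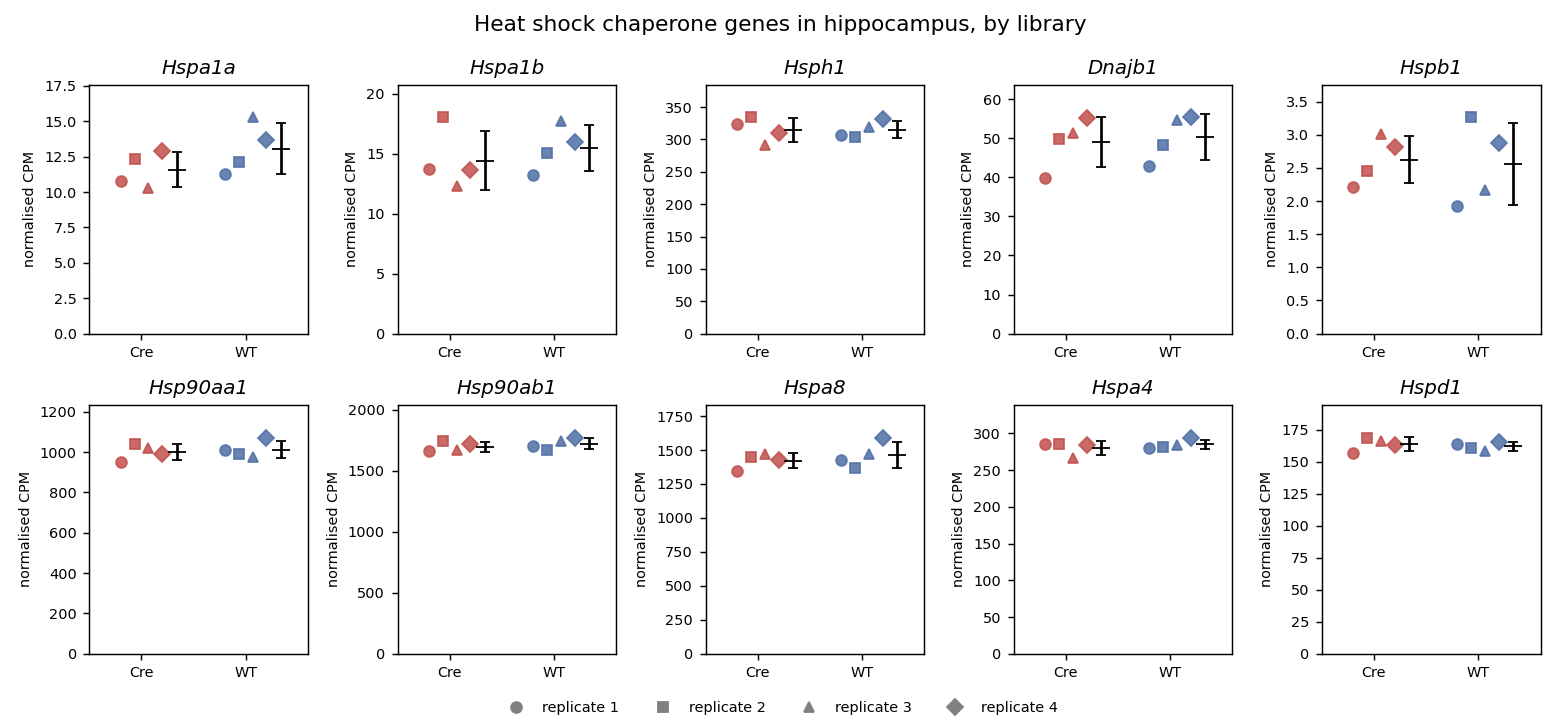
Normalised CPM (y axis, from 0) of each heat shock chaperone gene in the 4 Cre and the 4 WT libraries, with the mean and SD beside each group and the replicate number as the symbol. The Cre and WT points overlap in all 10 panels, and the scatter is widest relative to the level in Hspb1, where the WT libraries run from 1.93 to 3.26 CPM.

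Hspb1 and Dnajb1 are the other strongly inducible genes of the set with low levels. Hspb1 (chromosome 5, 135887919 to 135889563, plus strand), a small heat shock protein that holds unfolding proteins without ATP, had 2.22, 2.46, 3.004 and 2.81 CPM in Cre, against 1.93, 3.26, 2.16 and 2.88 CPM in WT. The WT libraries held both the lowest and the highest value. This was the scarcest of the 10 genes, with 52 to 84 counts in Cre libraries and 52 to 88 in WT libraries. Its log2 fold change was 0.04 (SE 0.19), and the 95% interval ran from -23.1% to 37.6%, the widest of the 10. Its within-group SD was 0.28 on the log2 scale, where counting error alone gives 0.18.

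Dnajb1 (chromosome 8, 83608193 to 83612653, plus strand), the J-domain protein that stimulates the HSP70 ATPase, had 39.9, 49.8, 51.3 and 55.2 CPM in Cre, against 43.0, 48.2, 54.7 and 55.4 CPM in WT. Replicate 1 was the lowest library of each group, and the other 6 libraries mixed. The means were 49.0 ± 6.49 CPM in Cre and 50.3 ± 5.85 CPM in WT (SD, n = 4 each), with a log2 fold change of -0.03 (SE 0.10). Its within-group SD of 0.19 on the log2 scale was well above the counting error of 0.04. The ratio of Dnajb1 to Hspa8 counts, a J-domain protein against a constitutive HSP70, was 0.0297 to 0.0387 in Cre and 0.0302 to 0.0372 in WT (exact permutation p = 0.971, n = 4 per group).

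The HSP110 genes Hsph1 and Hspa4 encode exchange factors that release ADP from HSP70 and so reset its cycle. Hsph1 (chromosome 5, 149614287 to 149636376, minus strand), the form that stress induces, had 324, 334, 291 and 309.8 CPM in Cre, against 306, 304, 319 and 332 CPM in WT. Both extremes were Cre libraries, replicate 2 the highest and replicate 3 the lowest. The means were 315 ± 18.7 CPM in Cre and 315 ± 12.8 CPM in WT, with a log2 fold change of -0.0021 (SE 0.05).

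Hspa4 (chromosome 11, 53259814 to 53300457, minus strand), a largely constitutive HSP110, had 285, 286, 266 and 284 CPM in Cre, against 281, 282, 284 and 294 CPM in WT. Cre replicate 3 lay below the other 7 libraries, and WT replicate 4 above them. The log2 fold change was -0.03 (SE 0.04), and the 95% interval ran from -6.97% to 3.67%. The ratio of Hsph1 to Hspa4 counts was 1.09 to 1.17 in Cre and 1.08 to 1.13 in WT (exact permutation p = 0.400, n = 4 per group).

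HSP90 completes the folding of many signalling proteins after HSP70 has acted on them. Hsp90ab1 (chromosome 17, 45567775 to 45573271, minus strand), the constitutive cytosolic HSP90, had 1664, 1749, 1668 and 1718 CPM in Cre, against 1705, 1668, 1742 and 1774 CPM in WT. The libraries of the groups mixed, with Cre replicate 1 lowest and WT replicate 4 highest. Its means were 1699.7 ± 40.7 CPM in Cre and 1722 ± 46.0 CPM in WT (SD, n = 4 each), with a log2 fold change of -0.02 (SE 0.03). The 95% interval of -5.62% to 3.21% was the narrowest of the 10 genes.

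Hsp90aa1 (chromosome 12, 110690605 to 110702728, minus strand), the more inducible cytosolic HSP90, had 951, 1039, 1018 and 993 CPM in Cre, against 1008, 989, 978 and 1072 CPM in WT. Its extremes were again Cre replicate 1 and WT replicate 4. The log2 fold change was -0.02 (SE 0.04). The ratio of Hsp90aa1 to Hsp90ab1 counts averaged 0.588 ± 0.02 in Cre and 0.587 ± 0.02 in WT (exact permutation p = 0.914, n = 4 per group), so the balance of the more inducible to the constitutive form did not differ beyond its spread.

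Hspa8 (chromosome 9, 40800984 to 40810087, plus strand), the constitutive HSP70 that also uncoats clathrin-coated vesicles at synapses, had 1342, 1447, 1472 and 1425 CPM in Cre, against 1426, 1366, 1471 and 1592 CPM in WT. WT replicate 4 stood above the other 7 libraries, which mixed. The means were 1422 ± 56.2 CPM in Cre and 1464 ± 95.5 CPM in WT (SD, n = 4 each), with a log2 fold change of -0.04 (SE 0.04). Of its 150-base transcript windows 55.99% also occur in other annotated genes, most of them in Gm26825 and Gm15459, which held 1 and 1190 counts over all 8 libraries, against 288273 for Hspa8.

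Hspd1 (chromosome 1, 55077835 to 55088243, minus strand) encodes HSP60, the chaperonin of the mitochondrial matrix, which works with HSP10, the product of Hspe1. It had 157, 169, 167 and 163 CPM in Cre, against 164, 161, 158 and 165 CPM in WT. The lowest and highest libraries were both Cre. The log2 fold change was 0.02 (SE 0.04), with a 95% interval of -4.49% to 7.04%. Hspe1 starts head to head with Hspd1 and overlaps it by 112 exonic bases on the other strand, where reads of both genes cannot be told apart unless the counting used strand, which is not stated. It had 39.2, 41.6, 39.5 and 40.2 CPM in Cre, against 38.3, 37.1, 35.1 and 40.8 CPM in WT, and its log2 fold change of 0.09 (SE 0.05) did not pass the threshold.

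**Figure D2:**
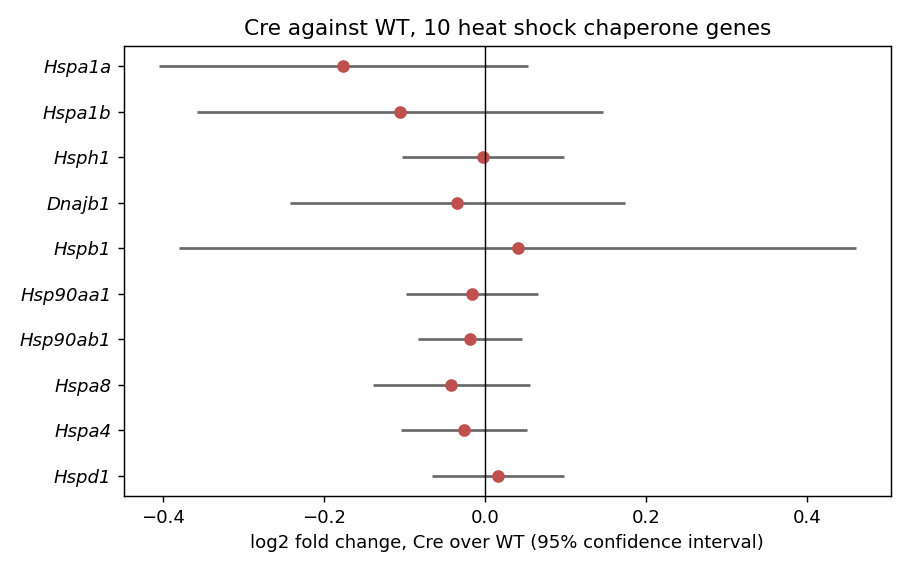
Log2 fold change of Cre over WT (x axis) with its 95% confidence interval for the 10 heat shock chaperone genes. Every interval includes 0, from the narrowest in Hsp90ab1 (-0.08 to 0.05) to the widest in Hspb1 (-0.38 to 0.46).

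The intervals set what these libraries could show. For the 6 abundant genes (Hsp90ab1, Hspa8, Hsp90aa1, Hsph1, Hspa4 and Hspd1) no interval reached below -9.20% or above 7.08%. The intervals of the scarcer genes were wider and unlike each other: -24.5% to 3.75% for Hspa1a, -22.0% to 10.7% for Hspa1b, -15.5% to 12.8% for Dnajb1 and -23.1% to 37.6% for Hspb1. In the authors' deposited table, which rests on these same 8 libraries, there were log2 fold changes between -0.17 for Hspa1a and 0.04 for Hspb1, with p-values from 0.1202 to 0.982 for the 10 genes.

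Corrected for length, mean levels over the 8 libraries spanned 227-fold. Hsp90ab1 had the highest level, with 555 to 583 CPM per kb of merged exon in Cre libraries and 556 to 591 in WT libraries. Hspa8 followed with 312 to 342 CPM per kb in Cre and 318 to 370.1 in WT, and Hsp90aa1 with 242 to 264 in Cre and 249 to 273 in WT. Hspd1 (59.3 to 63.9 CPM per kb in Cre, 59.8 to 62.6 in WT), Hspa4 (48.2 to 51.7 in Cre, 50.8 to 53.3 in WT) and Hsph1 (40.1 to 46.0 in Cre, 41.8 to 45.7 in WT) formed a middle group. The levels depend on the gene model: with exons of the basic transcript set alone, Hspa8 averaged 603 CPM per kb over the 8 libraries, against 335 with merged exons, and Hsp90ab1 679, against 570.5. Windows shared with other genes made up 55.99% for Hspa8 and 0% for Hsp90ab1, and the treatment of reads with several places is not stated. The order of the middle group also depends on the model: with exons of the basic transcript set alone, Hsph1 averaged 74.6 CPM per kb over the 8 libraries, above Hspd1 at 67.2 and Hspa4 at 61.2.

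The scarce end held Dnajb1 at 12.5 to 17.2 CPM per kb in Cre and 13.4 to 17.3 in WT, and Hspa1b at 4.39 to 6.43 in Cre and 4.70 to 6.31 in WT. Hspa1a had 3.47 to 4.36 in Cre and 3.79 to 5.15 in WT, and Hspb1 had 2.15 to 2.91 in Cre and 1.87 to 3.16 in WT. The ranges of Hspa1b and Hspa1a over the 8 libraries overlapped, although Hspa1b was above Hspa1a in 8 of 8. All other neighbours in this order had ranges that did not overlap. Windows shared with other genes also made up 36.6% for Hspb1, 36.2% for Hsp90aa1 and 18.6% for Hspd1. Their effect on the order was not tested. The constitutive HSP70 gene Hspa8 and the inducible Hspa1a and Hspa1b thus stood at opposite ends of the order. Together the 10 genes took 0.484% to 0.506% of all counts in Cre libraries and 0.489% to 0.525% in WT libraries, and Hsp90ab1, Hspa8 and Hsp90aa1 made up 82.6% to 83.9% of that.

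**Figure D3:**
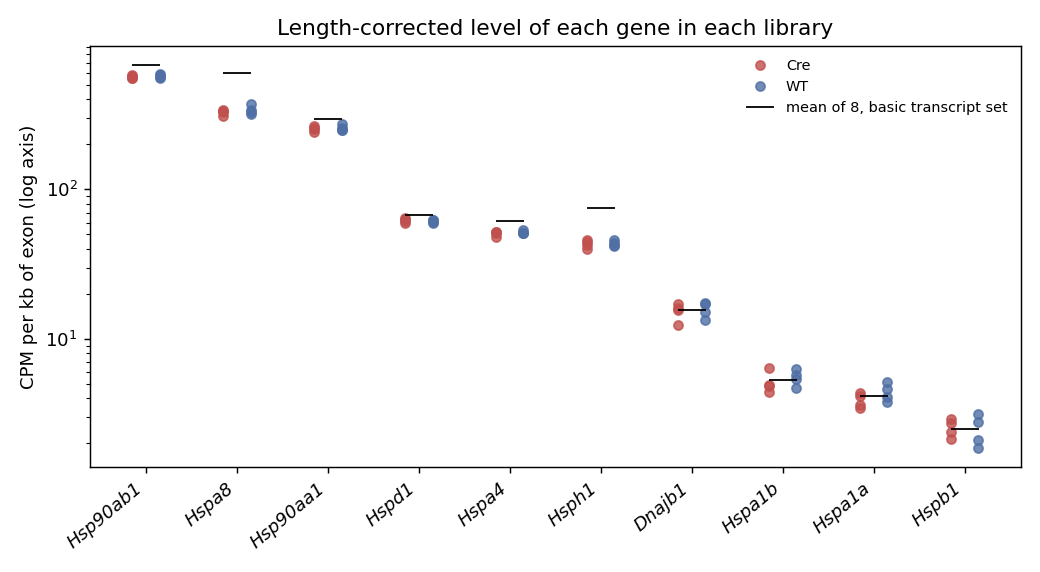
CPM per kb of exon (log axis) of each gene in each library, Cre points left of WT points, ordered by the mean over 8 libraries with exons of all annotated transcripts, and a bar for the mean with the basic transcript set. Hsp90ab1, Hspa8 and Hsp90aa1 lie above 240 CPM per kb in all libraries and Hspb1 below 3.2.

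The spread between libraries of a group was given by the SD of log2 CPM. The within-group SD on the log2 scale was 0.18 for Hspa1a, 0.21 for Hspa1b and 0.19 for Dnajb1, with counting errors of 0.08, 0.07 and 0.04. For Hsp90ab1, Hspd1 and Hspa4 it was 0.04 each, for Hsp90aa1 0.06, for Hsph1 0.07 and for Hspa8 0.08. The median over all genes tested, most of which have other levels, was 0.11.

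The lowest and highest libraries were shared by several genes. Cre replicate 1 was the lowest of the 8 libraries for 5 genes, Dnajb1, Hsp90aa1, Hsp90ab1, Hspa8 and Hspd1. Cre replicate 3 was the lowest for 4, the inducible HSP70 genes Hspa1a and Hspa1b and the HSP110 genes Hsph1 and Hspa4. For Hspa8, the constitutive HSP70, Cre replicate 3 was instead the highest Cre library, at 1472 CPM. WT replicate 4 was the highest for 5 and Cre replicate 2 for 3. Glial marker sums were highest in Cre replicate 1 and, for astrocytes and microglia, higher in all Cre than in all WT libraries, and their part in the chaperone levels was not tested. Without Cre replicate 1, the log2 fold changes of Dnajb1 and Hsp90aa1 turned to 0.053 and 0.0077. That of Hspa8 was -0.015, against -0.04 with all libraries, that of Hsp90ab1 was -0.0087, against -0.02, and that of Hspd1 was 0.037, against 0.02. Leaving out the lowest library of a gene raises its Cre mean, so the direction of these 5 shifts was fixed in advance. Of the other 5 genes, Hsph1 and Hspa4 moved down, to -0.016 and -0.034. Hspa1a, Hspa1b and Hspb1 moved up, to -0.14, -0.08 and 0.11. Of the 10 genes, 0 passed the threshold without Cre replicate 1.

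**Figure D4:**
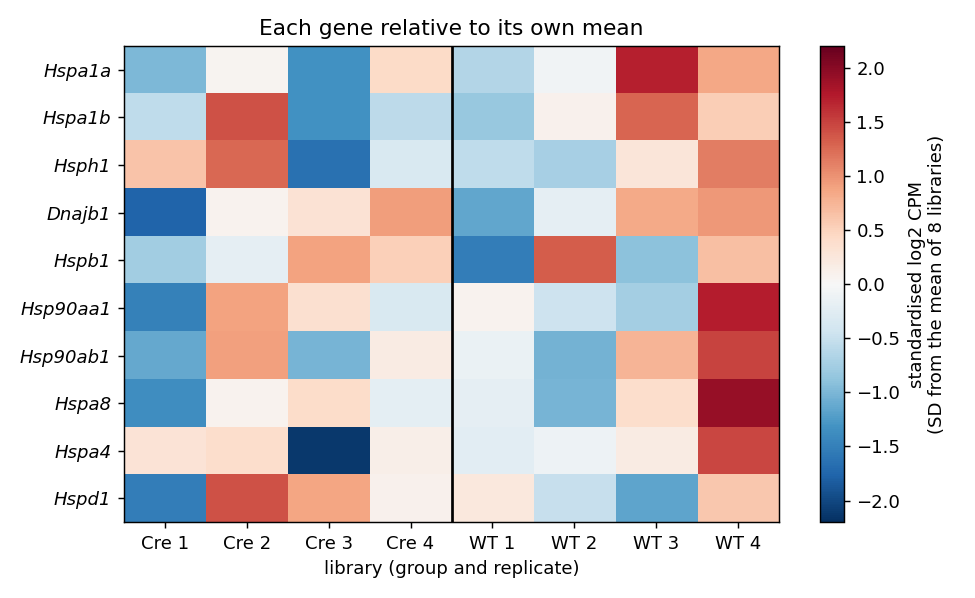
Log2 CPM of each gene in each library, as SD from that gene's mean over the 8 libraries (colour scale), Cre libraries left of the line and WT libraries right of it. The darkest low cells are in Cre replicates 1 and 3, the darkest high cells in WT replicates 3 and 4, and no gene is high in all libraries of either group.

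The genes whose levels followed the average of the inducible members most closely were sought over the 8 libraries. That average was the mean of the standardised log2 CPM of Hspa1a, Hspa1b, Hsph1, Dnajb1 and Hspb1. These 5 did not all move together. In Cre replicate 3, Hspa1a, Hspa1b and Hsph1 stood at -1.33, -1.33 and -1.65 SD, while Dnajb1 and Hspb1 stood at 0.32 and 0.88 SD. The 5 highest Pearson correlations belonged to Tmem229b (0.955), Luzp1 (0.952), Pfkfb3 (0.948), Aff4 (0.946) and Ppfia3 (0.946). These are the extremes of 15849 other genes over libraries that share their preparation, so they describe these 8 libraries only. Pfkfb3, an enzyme that makes an activator of glycolysis, had 36.5, 43.4, 39.5 and 41.9 CPM in Cre, against 35.0, 40.7, 48.9 and 47.9 CPM in WT. Like the mean of the inducible members, it was lowest in WT replicate 1 and high in WT replicates 3 and 4. Of these 5 genes, 0 passed the threshold between the groups.

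The 7 further lists cover the factors and partners of these chaperones. Of 68 further chaperone genes, 64 were tested and 0 passed the threshold in the edgeR fit, with 2 at an unadjusted p under 0.05. Fold changes lay above 0 for 27 and below 0 for 37, with a median of -0.02. Over all genes tested 3.50% lay at such a p. The groups did not overlap in 3 of the 64, Dnajc5, Cct6a and Hspa1l, where 2.31% of all genes did not.

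In the list of heat shock factors, which also holds Hsbp1, 4 of 5 genes were tested, 2 above and 2 below 0. Hsf1, the main inducer of these genes, had 29.2 to 31.7 CPM in Cre, against 28.3 to 31.0 CPM in WT, and a log2 fold change of 0.01 (SE 0.05). The Cre and WT libraries mixed. Hsf4, a factor best known from the lens, had -0.12 (SE 0.10), and Hsbp1, a small protein that binds heat shock factor 1, had 0.03 (SE 0.04).

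Of 11 J-domain genes, 4 lay above and 7 below 0. Dnajc5, which encodes the synaptic vesicle chaperone cysteine string protein, had 382, 387, 386 and 386 CPM in Cre, against 396, 396, 396 and 402 CPM in WT. All Cre libraries were below all WT libraries, yet the log2 fold change of -0.04 (SE 0.03) did not pass the threshold. Dnajb14, a J-domain protein of the endoplasmic reticulum membrane, had -0.07 (SE 0.04).

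Of 13 further HSP70 family and exchange factor genes, 6 lay above and 7 below 0. Hspbp1, an exchange factor of HSP70, had 65.7, 63.8, 68.3 and 64.9 CPM in Cre, against 70.9, 70.9, 68.1 and 73.6 CPM in WT, with a log2 fold change of -0.11 (SE 0.04) and an unadjusted p of 0.0168 by edgeR's quasi-likelihood test. Only Cre replicate 3 and WT replicate 3 crossed, and it did not pass over all genes. Hspa4l, an HSP110 relative, had -0.08 (SE 0.04). Hspa1l, an HSP70 gene best known from testis, had 0.460 to 0.615 CPM in Cre, against 0.296 to 0.453 CPM in WT, and its log2 fold change of 0.48 (SE 0.27) did not pass. Its CPM ranges are narrowly apart, while its counts, 11 to 15 in Cre libraries and 8 to 11 in WT libraries, meet. Its transcript shares letters with Hspa1a and Hspa1b.

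Of 15 HSP90 co-chaperone genes, 7 lay above and 8 below 0. Sugt1, which links HSP90 to ubiquitin ligase complexes, had 48.0, 52.8, 49.6 and 48.0 CPM in Cre, against 54.6, 54.2, 52.5 and 51.8 CPM in WT. Cre replicate 2 lay inside the WT range, and the log2 fold change was -0.10 (SE 0.04, unadjusted p = 0.0316 by edgeR's quasi-likelihood test). Cdc37, which brings kinases to HSP90, had 0.05 (SE 0.04).

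Of the 7 genes listed by symbol as other small heat shock proteins 4 were tested, 3 above and 1 below 0. Hspb2, Hspb3 and Hspb7 had too few counts. Hspb8, which acts with Bag3 in selective autophagy, had 0.10 (SE 0.08), and Cryab, alpha B crystallin, had 0.06 (SE 0.06). Of 9 mitochondrial chaperone and protease genes 5 lay above and 4 below 0, and Trap1, the mitochondrial HSP90, had -0.05 (SE 0.04).

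All 8 subunits of the cytosolic chaperonin TRiC, which folds actin and tubulin, lay below 0, between -0.08 and -0.02 on the log2 scale. None of the 8 passed the threshold, or an unadjusted p under 0.05, in the edgeR fit. Cct7 had -0.08 (SE 0.05). Cct6a had 133, 137, 136 and 137 CPM in Cre, against 138, 142, 143 and 139.8 CPM in WT, and a log2 fold change of -0.05 (SE 0.04). Its groups did not overlap. Beside these lists, 11 immediate early genes that follow neuronal firing all lay above 0 (median 0.29), with summed levels of 649.5 to 951 CPM in Cre and 544 to 746 CPM in WT, and 0 passed the threshold by the same test, with 5 of the 11 at an unadjusted p under 0.05, where 3.50% of all genes lay.

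**Figure D5:**
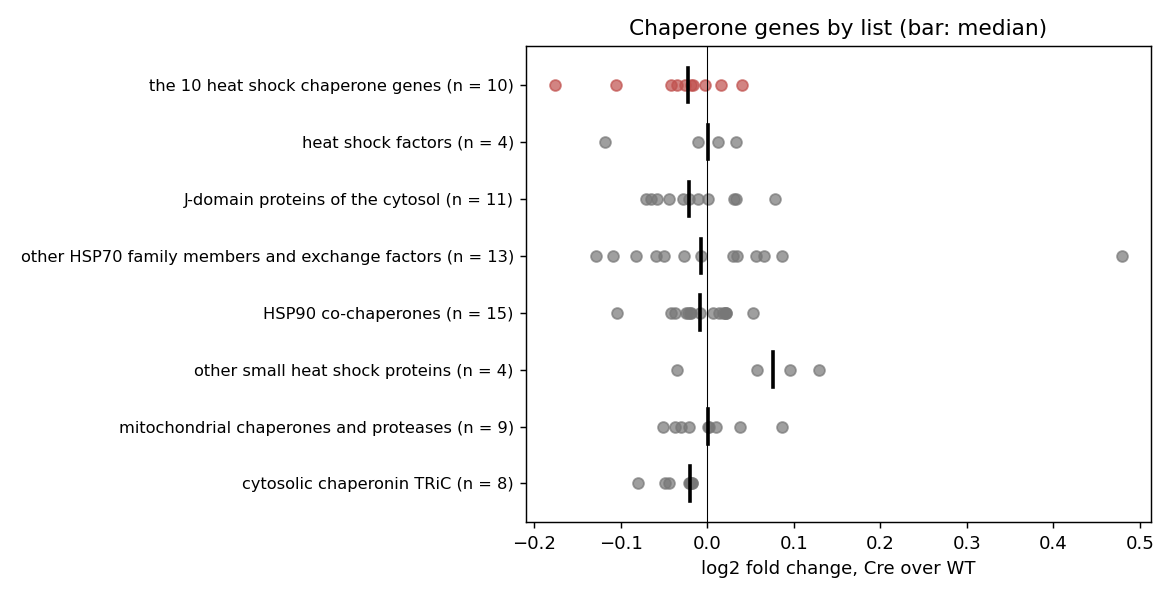
Log2 fold change of Cre over WT (x axis) for the 10 heat shock chaperone genes (top row) and the tested genes of 7 further chaperone lists, each dot a gene and each bar the list's median. The list medians lie between -0.02 and 0.08, and the point at 0.48 is Hspa1l.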

How the data were processed

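Hippocampal poly(A) RNA was sequenced as 150-base paired reads, per the labels' protocols. The authors deposited raw counts, 1 whole number for each gene symbol in each library. STAR 2.6.1d, featureCounts, edgeR 3.11 and the genome build GRCm38 are named in the submitters' processing notes. For the annotation release, the strand setting and reads with several places, the choice is not given in the sources used. A second deposited table holds the authors' comparison, with log2 fold changes, p-values whose adjustment is not stated, and an abundance score that is 2 to the power of the mean log2 CPM.

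The 8 libraries (4 Cre, 4 WT) held 21339996 to 27826871 counts. The filter was filterByExpr with a minimum count of 10 and a minimum total of 15, libraries were scaled by TMM (factors 0.988 to 1.01), and Cre was compared with WT by edgeR's quasi-likelihood test (edgeR 4.0.16, R 4.3.3, no covariate) with Benjamini-Hochberg adjustment over 15859 genes and a threshold of 0.05. The threshold means this adjusted p throughout. The code was tested on simulated data. Repeated symbols (272) were kept as separate entries. Alternatives were other scalings, no filter, DESeq2 1.42.0 (without the filter, and on the filtered genes), limma voom 3.58.1, a replicate block and each library left out. Exact permutation tests used log2 CPM (prior count 2). Lengths, positions and transcript windows come from GENCODE M21 (GRCm38) and promoters from RefSeq. Genes named are the 10 members, Syt2, 2 genes of smallest p per chaperone list with Hsf1, and the 5 most similar genes. Hspa1l, Gm10501, Gm20481, Gm26825 and Gm15459 were named after their values were seen. The members and lists were chosen with earlier results of these data known. Intervals and the replicate spread cover these libraries only.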

Additional observations from a re-analysis of the deposited data

Results flagged for a closer look

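Among the 10 genes in each of the 2 groups, 20 sets of 4 libraries in all, a single value stood apart from the rest of its group. Hspa4 was at 266 CPM in Cre replicate 3, where Cre replicates 1, 2 and 4 had 284 to 286 CPM, a gap of 0.896 of the group's range where the critical value is 0.829. Chance flags about 1 in 20 such sets. Without that library the log2 fold change of Hspa4 was -0.0021.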

How the results depend on the processing

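Over the 15 alternatives (7 other fits and 8 with a library left out), 0 of the 10 genes passed the threshold in any, and the smallest adjusted p of a member was 0.891, without the filter on low counts. The number of genes called over the whole table, 5, was 4 to 6 with a library left out, 5 with other scalings or limma voom, 7 without the filter, 7 with DESeq2 on the unfiltered genes, 7 with DESeq2 on the filtered genes (a fit chosen after seeing the data) and 6 with the replicate block. Of 150 member values, 136 kept their direction and 14 turned, in 5 genes, and the cause was not tested. The log2 fold change of Hsph1 turned to 0.0043 with library totals only. With a library left out the log2 fold changes ran from -0.032 to 0.034 for Hsph1, from -0.10 to 0.053 for Dnajb1, from -0.076 to 0.18 for Hspb1, from -0.035 to 0.013 for Hsp90aa1 and from -0.073 to 0.00088 for Hspa8. The direction held in the other 5 genes. There the values ran from -0.24 to -0.09 for Hspa1a and from -0.23 to -0.03 for Hspa1b. They ran from -0.033 to -0.0043 for Hsp90ab1, from -0.036 to -0.0021 for Hspa4 and from 0.0012 to 0.037 for Hspd1. The labels do not say whether the replicate numbers pair the libraries. Deviations of same-numbered libraries from their group means correlated between -0.11 and 0.20, over 0.1 in 1 of 4 pairs. With 4 libraries per group, these correlations cannot settle whether the numbers pair them. With the replicate block 0 of the 10 genes passed. Depth limits Hspb1 most, with about 65 counts per library.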
